A study of Homo sapiens with 33 samples.

Results

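Gene expression of the platinum-resistant line OVCAR3 ResB was compared with that of its parent, OVCAR3, to ask which genes differed after selection with cisplatin. OVCAR3 is an established line of high-grade serous ovarian carcinoma (HGSOC). OVCAR3 ResB was derived from it, per the study's methods, by repeated short pulses of cisplatin at rising doses with drug-free recovery between them, and was not kept in cisplatin afterwards. The 6 libraries used here are the 3 labelled OVCAR3ResB and the 3 labelled OVCAR3, out of 33 libraries from 11 lines. The 3 libraries of OVCAR3 ResA, a second line derived from OVCAR3 in the same way and independently, served to ask which differences were shared. No library is labelled as treated with drug. Whether OVCAR3 ResB is 1 clone or a mixed population, and whether the replicates are separate cultures, is not given in the sources used here, so p-values measure only the spread between these libraries.

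Cisplatin forms adducts on DNA that block replication. Cells can tolerate it by taking up less drug, exporting more of it, binding it with thiols such as glutathione and metallothionein, repairing or bypassing the adducts, or raising the threshold for cell death. Serous carcinoma cells are epithelial and carry transcription factors of the Mullerian lineage such as PAX8, and they can also make cytokines, interferon-stimulated proteins, integrins and matrix proteins that connect them with their surroundings.

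Estimated counts per library ran from 18058985 to 36622282. Replicates were further apart than sampling noise, with a chi-square of 41.5 to 506.4 for each degree of freedom. Pearson r across genes, on log2(TPM + 1), was 0.957 to 0.982 within OVCAR3, 0.912 to 0.952 within OVCAR3 ResB and 0.889 to 0.952 between the lines, so the range within OVCAR3 ResB overlapped the range between the lines. TPM, the transcript abundance, is a level per gene length that sums to the same total in each library. RNR1 and RNR2, the mitochondrial rRNA genes, took 5.97%, 8.88% and 1.12% of counts in OVCAR3 ResB and 2.395%, 4.93% and 7.52% in OVCAR3, and these shares overlapped (exact two-sided permutation test, p = 0.9, where 0.1 is the smallest p that 3 against 3 can give). Of the markers of serous carcinoma, PAX8, MUC16, WFDC2, CDH6 and MECOM were present in both lines, while ESR1 was at most 0.117 TPM in any of the 6 libraries. The leukocyte markers CD3D, CD3E, MS4A1 and NKG7 were at 0 in all 6 libraries, and the summed level of all 14 leukocyte markers was 4.47 to 4.9 TPM in OVCAR3 and 4.66 to 6.92 TPM in OVCAR3 ResB.

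Of 16667 genes tested with DESeq2, 1241 (7.45%) were called at a Benjamini-Hochberg adjusted p-value under 0.05. In OVCAR3 ResB 667 were higher (4% of those tested) and 574 lower (3.44%), and the median log2 fold change of all tested genes was -0.004. TPM of the 2 lines did not overlap for 3877 genes (23.3%), of which 2102 were higher (12.6%) and 1775 lower (10.6%). The lines did not overlap for 622 of the 667 genes called higher and 551 of the 574 called lower. Differences of more than 8-fold were found for 142 genes higher and 162 lower. The same fit of OVCAR3 ResA against OVCAR3 called 8184 of 17663 genes (46.3%). Replicates of OVCAR3 ResA were closer to each other, at r 0.953 to 0.984, and why the shares differ was not tested. A gene not called in OVCAR3 ResB is not thereby shown to be unchanged. The calls of OVCAR3 ResB depended on the replicate. Without replicate 3 of both lines 1086 genes were called higher and 853 lower, of which 67.1% and 73.9% had the same sign in the 2 libraries left out, against 51.6% of genes not called. Genes called without replicate 2 kept their sign in the libraries left out in 99.2% (of 244 higher) and 97.1% (of 208 lower), against 65.8% of genes not called, and those called without replicate 1 in 96.6% of both 324 higher and 293 lower genes, against 56.5%. Without the OVCAR3 ResB replicate 3 library alone, and without the replicate block, 907 genes were called higher and 815 lower. Genes are therefore described first where the libraries of the lines did not overlap.

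The 13 protein-coding genes described here with the widest gap above the parental libraries were led by a hair keratin, a secreted protease and a matrix proteoglycan. KRT81, a type II keratin of hair (chr12:52285913-52291534; all positions are from RefSeq on GRCh38.p14), had 546, 1025 and 896 TPM in the 3 OVCAR3 ResB libraries and 1.06, 1.07 and 1.21 TPM in OVCAR3. Every OVCAR3 ResB library stood far above every parental one, at a log2 fold change of 9.37 ± 0.37 (SE, DESeq2 adjusted p 4.75e-135). KRT83 and KRT86 are close copies of KRT81 between which reads could be divided, and summed over all 3 the levels were 551, 1031 and 907 against 2.12, 2.33 and 2.43 TPM. CPA4, a secreted carboxypeptidase (chr7:130293161-130324180), had 148, 96.5 and 125 TPM against 2.04, 2.4 and 1.87, a log2 fold change of 5.76 ± 0.34. SPOCK1, a proteoglycan of the extracellular matrix (chr5:136975298-137499326), had 108, 59.3 and 95.3 TPM against 1.65, 1.4 and 1.56, a log2 fold change of 5.68 ± 0.33. For both, the lowest OVCAR3 ResB library was well above the highest parental one.

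Calcium-binding proteins, a chaperone and membrane proteins made up most of the rest. S100A9, which pairs with S100A8 to form the calcium-binding complex calprotectin (chr1:153357854-153361023), had 227, 167 and 311 TPM against 8.98, 3.56 and 1.36, a log2 fold change of 5.82 ± 0.45. CRYAB, a small heat shock protein that keeps other proteins from aggregating (chr11:111908564-111923740), was abundant, at 1364, 1809 and 2440 TPM against 76.4, 111 and 107, a log2 fold change of 4.14 ± 0.31. MAL, a membrane protein of apical transport in epithelia (chr2:95025708-95053992), had 904, 561 and 729 TPM against 35.1, 37.2 and 35, a log2 fold change of 4.25 ± 0.32. The parental libraries of MAL and CRYAB were already high, so these rose from a moderate level, whereas the following genes were close to absent in OVCAR3. MGP, matrix Gla protein, an inhibitor of calcification, had 12.3, 13.8 and 10.5 TPM against at most 0.318. SLC1A6, a glutamate transporter, had 24.5, 11.1 and 11.1 TPM and a single count over the 3 OVCAR3 libraries, a ratio of normalised counts of 1227 with a 95% counting interval from 220 to 48521.

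The remaining 5 were KCNIP3, a calcium-binding partner of potassium channels (log2 fold change 5.52 ± 0.35), HECW1, a ubiquitin ligase (6.18 ± 0.44), HLA-DMB, which loads peptides onto MHC class II (5.48 ± 0.54), MKX, a homeobox factor known from tendon (3.88 ± 0.33), and LGALS14, a galectin known from placenta (3.45 ± 0.38). Their means in OVCAR3 ResB ran from 10.5 TPM for HECW1 to 58.5 TPM for LGALS14. Of the 13 genes, 12 were called whichever replicate number was left out and 13 were called with edgeR. The genes were chosen on these same 6 libraries, so both counts were largely set by that choice. SLC1A6 was not called without replicate 2 (DESeq2 adjusted p 0.156).

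**Figure D1:**
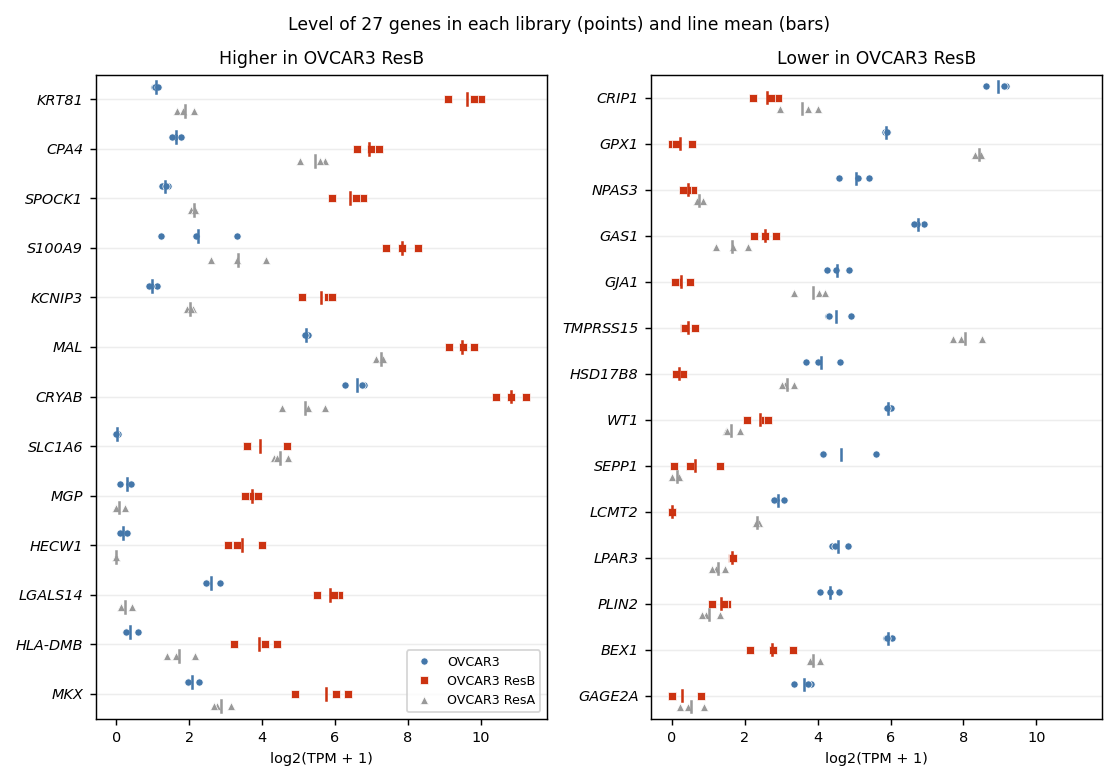
Level of the 13 higher and 14 lower genes described with the widest gap between the lines, as log2(TPM + 1) on the horizontal axis, for each library (points) and as the mean of a line (vertical bars) in OVCAR3, OVCAR3 ResB and OVCAR3 ResA. In each gene the 3 OVCAR3 ResB points lie on one side of the 3 OVCAR3 points; KRT81 runs from about 1 TPM in OVCAR3 to between 546 and 1025 TPM.

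Among the 14 lower genes, several that were well expressed in OVCAR3 were close to absent in OVCAR3 ResB. CRIP1, a small LIM-domain protein (chr14:105486886-105488947), had 3.65, 6.47 and 5.53 TPM against 393, 571 and 549 in OVCAR3, and fell by 6.69 ± 0.39 on the log2 scale (SE, DESeq2 adjusted p 1.13e-62). GPX1, the cytosolic glutathione peroxidase that reduces hydrogen peroxide (chr3:49357176-49358353), had 0, 0.461 and 0.0828 TPM against 56.8, 59.4 and 58.6, with 8 counts in the 3 OVCAR3 ResB libraries together against 2282, and fell by 8.23 ± 0.75 (adjusted p 5.66e-25). GJA1, a gap junction protein of the connexin family (chr6:121435646-121449727), had 0.12, 0.0696 and 0.417 TPM against 27.9, 18.1 and 21.5, and fell by 7.1 ± 0.51. HSD17B8, a mitochondrial enzyme of fatty acid and steroid metabolism (chr6:33204655-33206831), had 0.105, 0.24 and 0.0738 TPM against 23.5, 15 and 11.8, with 5 counts against 773. In all 4 genes the highest OVCAR3 ResB library lay far below the lowest parental one.

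LCMT2, an enzyme that modifies transfer RNA (chr15:43323649-43330573), was at 0 counts in all 3 OVCAR3 ResB libraries and at 6.23, 7.37 and 6.03 TPM in OVCAR3. It was at least 82.4-fold lower, against a floor of 3 counts per library. The DESeq2 call of LCMT2 (adjusted p 2.42e-14) was lost with any replicate number left out, at 0.124 for replicate 1, 0.182 for replicate 2 and 0.0735 for replicate 3. With all 6 libraries edgeR also called it (adjusted p 0.00408). ADAL, an adenosine deaminase-like enzyme that starts within the LCMT2 interval, was also lower (0.1, 0 and 0.251 against 3.02, 2.82 and 1.88 TPM, DESeq2 adjusted p 7.24e-10), and since the use of strand in the counting is not stated, reads of this overlapping pair may have been divided between them. Summed, LCMT2 and ADAL gave 0.1, 0 and 0.251 TPM against 9.25, 10.2 and 7.91.

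Apart from ADAL, no gene among the 3 on each side of GPX1, HSD17B8 and LCMT2 was called lower. USP4 and RHOA, on either side of GPX1, had log2 fold changes of 0.03 ± 0.36 and 0.15 ± 0.33, and RHOA was at 336, 211 and 591 TPM against 412, 239 and 248. SLC39A7 and RING1, on either side of HSD17B8, had -0.07 ± 0.32 and -0.44 ± 0.38. ZSCAN29, beyond ADAL, had 0.53 ± 0.35. Neither these 5 genes nor TCTA, RXRB and VPS52 were called. RPS18, the outermost gene drawn after HSD17B8, had -0.79 ± 0.35 with libraries that did not overlap (4766, 6707 and 4547 against 8330, 9181 and 8281 TPM), and was not called. TGM5, before LCMT2, was called higher, at 2.53, 1.74 and 5.98 against 0.665, 0.873 and 0.786 TPM.

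**Figure D2:**
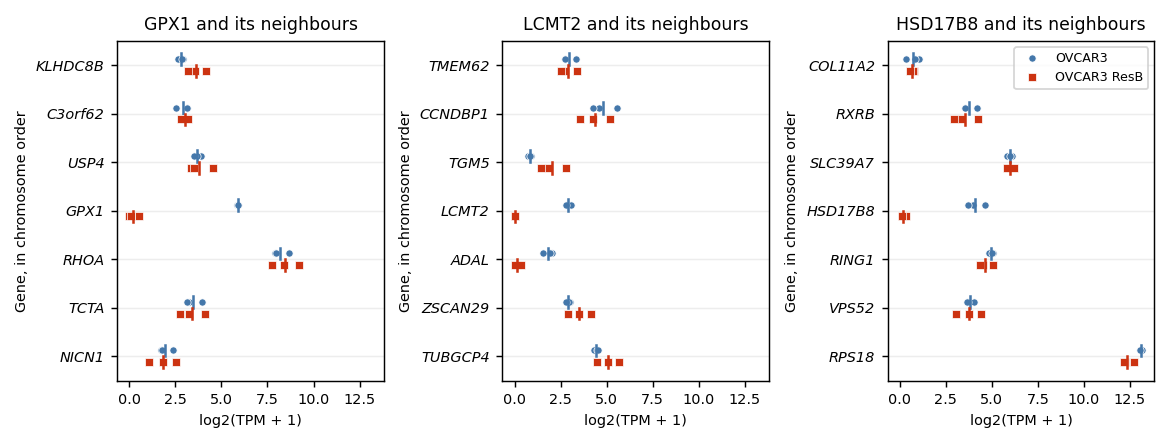
Level of GPX1, LCMT2 and HSD17B8 and of the 3 expressed genes on each side, in chromosome order from top to bottom, as log2(TPM + 1) in each library (points) with the line mean (vertical bars), for OVCAR3 and OVCAR3 ResB. The named gene, and ADAL beside LCMT2, are at or near 0 in OVCAR3 ResB, while RHOA (211 to 591 TPM) and SLC39A7 (54.5 to 72.6 TPM) stay at levels that overlap the parental ones.

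Developmental and signalling genes and lipid carriers made up the others. WT1, the zinc finger factor used as a marker of serous carcinoma (chr11:32387775-32435539), had 4.83, 3.17 and 5.21 TPM against 58.9, 63.6 and 58.4 and fell by 3.9 ± 0.33 on the log2 scale. GAS1, a co-receptor for Hedgehog ligands, had 6.18, 3.76 and 4.92 TPM against 119, 104 and 99.7. NPAS3, a transcription factor known from brain development, had 0.505, 0.342 and 0.24 TPM against 23.1, 33.8 and 41.9. No library of these 3 genes overlapped between the lines. TMPRSS15, the protease enteropeptidase, fell by 6.08 ± 0.41, SEPP1 (current symbol SELENOP), which carries selenium in plasma, by 5.98 ± 0.54, PLIN2, a coat protein of lipid droplets, by 3.76 ± 0.38, LPAR3, a lysophosphatidic acid receptor, by 3.57 ± 0.39, and BEX1, a small X-linked signalling adaptor, by 3.5 ± 0.44. GAGE2A belongs to the GAGE cancer-testis antigens, whose copies are nearly identical, so that its own value is uncertain, and it was not called without replicate 3 (adjusted p 0.172). Summed over 11 GAGE genes the level was 0.927, 0.554 and 1.14 TPM in OVCAR3 ResB against 15.3, 15.4 and 13.7 in OVCAR3. Of the 14 lower genes, 12 were called whichever replicate number was left out, and 14 with edgeR. These counts too were largely set by choosing the genes on the same 6 libraries.

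Immune genes were called mostly in one direction. Among 41 interferon-stimulated genes 9 were higher and 1 lower (24.4% called, against 7.45% of all genes tested). Their median log2 fold change was 0.84. IFI27, a mitochondrial protein induced by interferon, had 97.6, 83.7 and 54.3 TPM against 8.41, 9.61 and 9.29 (log2 fold change 2.96 ± 0.42, DESeq2 adjusted p 1.52e-10). GBP1, a guanylate-binding GTPase of cell defence, had 71.7, 41.9 and 65.1 TPM against 16.2, 13.6 and 18.1 (1.8 ± 0.32). These 2 were called without any 1 of the replicate numbers. The others depended on the library. IFIT1, which binds foreign RNA, had 20.4, 5.24 and 2.55 TPM against 1.75, 1.56 and 1.52, and OAS2, a sensor of double-stranded RNA, had 4.25, 1.62 and 0.355 against at most 0.205. IFI6 had 61.6, 23.9 and 5.46 TPM against 5.61, 5.66 and 5.82, so that its replicate 3 lay just below the parental libraries and the lines overlapped. In all 3, replicate 1 of OVCAR3 ResB was highest and replicate 3 lowest. MX2, a dynamin-like restriction factor, went the other way from its paralog MX1, with 0.191, 0.0983 and 0.0884 TPM against 2.91, 1.58 and 1.22, and fell by 4.09 ± 0.69, while MX1 rose by 1.45 ± 0.39. The number called higher was 2 without replicate 1, 3 without replicate 2, 16 without replicate 3, 19 without only the OVCAR3 ResB replicate 3 library, 5 without only its replicate 1 library, and 4 with edgeR.

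The promoters of the interferon-stimulated genes that rose are shown because they share letters the comparison did not use. An interferon-stimulated response element was searched as GAAA, any 2 bases and GAAA, on both strands, in the 300 bases from 250 before to 50 after the start that RefSeq gives (GRCh38.p14). Of the 9 genes called higher 7 had a promoter in the table, and 7 of these held the letters, as did 12 of 24 other tested members with a promoter and 3.65% of all 27305 promoters. The list holds known interferon targets, so the high share describes the list as much as the genes that rose. Capitals mark the matches, which in BST2 overlap, and sequences run 5′ to 3′ on the gene's strand for IFI27 (chr14:94110486-94110785, plus strand), GBP1 (chr1:89065159-89065458, minus strand), IFIT1 (chr10:89392373-89392672, plus strand) and BST2 (chr19:17405581-17405880, minus strand).
IFI27: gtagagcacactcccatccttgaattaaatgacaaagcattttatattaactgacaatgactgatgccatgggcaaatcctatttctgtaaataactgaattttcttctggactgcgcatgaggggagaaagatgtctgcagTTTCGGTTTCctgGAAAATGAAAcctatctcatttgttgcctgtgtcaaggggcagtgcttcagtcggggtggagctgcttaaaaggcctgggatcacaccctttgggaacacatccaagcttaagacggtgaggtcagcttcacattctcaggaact
GBP1: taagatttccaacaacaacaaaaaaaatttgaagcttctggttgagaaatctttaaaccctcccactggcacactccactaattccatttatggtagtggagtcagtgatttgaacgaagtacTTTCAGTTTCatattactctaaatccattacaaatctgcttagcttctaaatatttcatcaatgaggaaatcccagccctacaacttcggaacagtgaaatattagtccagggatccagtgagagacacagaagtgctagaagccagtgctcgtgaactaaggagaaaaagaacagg
IFIT1: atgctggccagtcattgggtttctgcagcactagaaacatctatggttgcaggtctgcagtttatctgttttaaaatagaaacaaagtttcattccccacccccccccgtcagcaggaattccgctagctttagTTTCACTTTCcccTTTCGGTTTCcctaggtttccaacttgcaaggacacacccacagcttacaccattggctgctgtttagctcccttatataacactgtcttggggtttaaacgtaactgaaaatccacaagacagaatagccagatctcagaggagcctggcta
BST2: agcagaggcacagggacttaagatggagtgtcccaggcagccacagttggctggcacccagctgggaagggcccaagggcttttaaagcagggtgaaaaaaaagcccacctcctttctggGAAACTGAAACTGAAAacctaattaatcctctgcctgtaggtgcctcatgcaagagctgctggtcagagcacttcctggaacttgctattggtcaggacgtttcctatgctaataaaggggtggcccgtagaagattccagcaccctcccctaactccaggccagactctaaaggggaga

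Of 23 cytokine and chemokine genes tested, 11 were higher and 0 lower (47.8% called, against 7.45% of all genes tested). Their median log2 fold change was 1.24. By edgeR 6 were higher and 0 lower, and at an unadjusted DESeq2 p-value under 0.05 they were 14 and 1. IL32, a proinflammatory cytokine, had 29.2, 80.1 and 46.1 TPM against 2.06, 3.93 and 2.49 (log2 fold change 3.96 ± 0.39, DESeq2 adjusted p 7.34e-22). CXCL1, a chemokine for neutrophils, had 102, 86.2 and 144 TPM against 13.2, 16.7 and 21.9 (2.58 ± 0.35). Both were clearly apart from the parental libraries in every replicate. TNF had 3.21, 2.88 and 8.84 TPM against 0.361, 0.217 and 0.217 (3.93 ± 0.64), and CSF1, the growth factor of macrophages, had 5.42, 6.21 and 7.04 against 0.819, 1.04 and 1.01 (2.61 ± 0.4). IL18, IL6, CXCL2, LIF, CXCL16 and CX3CL1 rose by 1.03 to 2.03 on the log2 scale, and IL33, at 0 counts in OVCAR3 and at most 0.86 TPM in OVCAR3 ResB, was at least 5.7-fold higher. IL6, which signals through STAT3, had 3.96, 6.74 and 9.72 TPM against 0.579, 2.47 and 2, and lost its call without replicate 1 (adjusted p 0.244) or replicate 2 (0.181). The number called was 5 to 10 without 1 replicate number.

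A site for NF-kB, a factor that drives many cytokine genes, was searched in the same windows as GGGA, any 2 bases and TTCC, on both strands. It was present in 4 of the 6 called cytokine genes that had a promoter, in 3 of 11 other tested members and in 1.63% of all promoters. Since NF-kB drives many cytokine genes, the high share describes the list as much as the genes that rose. Whether NF-kB acts on these genes in OVCAR3 ResB was not tested. The 4 are shown with the matches in capitals, where a match on each strand can overlap, as in CXCL1 (chr4:73869143-73869442, plus strand) and CXCL2 (chr4:74099146-74099445, minus strand), which are neighbouring duplicates with nearly the same letters around the site. The others are IL32 (chr16:3065153-3065452, plus strand) and IL6 (chr7:22726950-22727249, plus strand).
IL32: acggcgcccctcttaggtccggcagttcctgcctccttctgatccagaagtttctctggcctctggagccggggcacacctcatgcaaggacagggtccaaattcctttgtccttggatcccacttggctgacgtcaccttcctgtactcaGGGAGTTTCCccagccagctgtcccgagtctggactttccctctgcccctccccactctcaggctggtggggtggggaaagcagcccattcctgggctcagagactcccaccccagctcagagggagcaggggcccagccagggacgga
CXCL1: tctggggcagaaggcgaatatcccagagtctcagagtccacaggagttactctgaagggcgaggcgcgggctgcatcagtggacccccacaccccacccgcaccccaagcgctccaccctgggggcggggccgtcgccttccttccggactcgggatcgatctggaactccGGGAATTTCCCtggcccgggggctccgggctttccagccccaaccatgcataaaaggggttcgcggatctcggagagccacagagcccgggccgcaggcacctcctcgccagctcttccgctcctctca
CXCL2: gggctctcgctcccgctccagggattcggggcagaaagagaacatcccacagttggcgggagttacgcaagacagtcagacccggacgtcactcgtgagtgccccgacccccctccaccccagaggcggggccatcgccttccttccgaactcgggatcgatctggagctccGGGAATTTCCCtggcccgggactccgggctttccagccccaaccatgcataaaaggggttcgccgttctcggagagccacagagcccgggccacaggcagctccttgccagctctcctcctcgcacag
IL6: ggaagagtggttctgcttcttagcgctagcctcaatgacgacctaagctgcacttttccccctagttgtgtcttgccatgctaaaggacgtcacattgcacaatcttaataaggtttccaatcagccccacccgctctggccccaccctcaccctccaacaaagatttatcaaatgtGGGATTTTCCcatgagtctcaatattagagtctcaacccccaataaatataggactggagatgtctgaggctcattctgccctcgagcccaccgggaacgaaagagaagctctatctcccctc

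MHC class I presentation had 6 of 17 genes higher and 0 lower (35.3% called, against 7.45% of all genes tested). The median was 0.42, and edgeR called 3 higher and 0 lower. HLA-B had 93.9, 62.5 and 115 TPM against 30.4, 19.6 and 19.6 (log2 fold change 1.85 ± 0.32, DESeq2 adjusted p 6.21e-07), and PSMB9, a subunit of the immunoproteasome, had 14.3, 9.13 and 8.26 against 1.8, 1.55 and 2.2. HLA-F, TAP1 and NLRC5 were also higher. Without replicate 1, and likewise without replicate 2, 1 gene of this list was called. HLA genes are polymorphic and similar to each other, so reads could be divided between them. Of 20 NF-kB subunits and feedback genes 4 rose (20% called, against 7.45% of all genes tested). They were ICAM1, an adhesion molecule for leukocytes (1.89 ± 0.35), BIRC3, TNFAIP3 and TNFAIP2. With a replicate number left out 1 to 4 were called. Among 27 STAT and SOCS signalling genes only OSMR, the oncostatin M receptor, was called (12.2, 8.47 and 27 against 6.28, 6.44 and 5.7 TPM, DESeq2 adjusted p 0.0124). That is 3.7% of the list, against 7.45% of all genes tested. OSMR was not called by edgeR or with any replicate number left out, and without replicate 3, 2 other members were called lower.

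**Figure D3:**
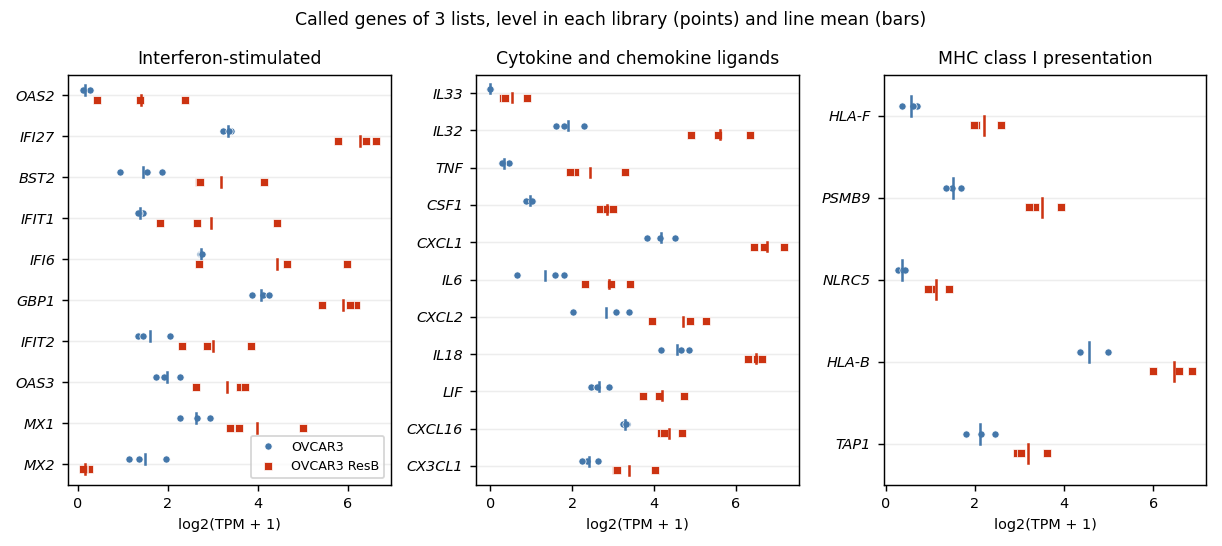
Level of called members of 3 lists as log2(TPM + 1) on the horizontal axis, in each OVCAR3 and OVCAR3 ResB library (points) with the line mean (vertical bars). The OVCAR3 ResB points of IFIT1, IFI6 and OAS2 are spread widely, for IFI6 from 5.46 to 61.6 TPM, whereas those of CXCL1 and IL18 stay together above the parental points.

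Adhesion and matrix genes moved in both directions. Of 19 integrins tested 6 were higher and 1 lower (36.8% called, against 7.45% of all genes tested). ITGA3, which pairs with ITGB1 into a laminin receptor, had 137, 139 and 333 TPM against 24.3, 22.6 and 22.8 (log2 fold change 2.9 ± 0.33, DESeq2 adjusted p 8.2e-16). ITGB2, the beta chain of leukocyte integrins, had 5.59, 4.91 and 6.65 TPM against 0.249, 0.12 and 0.241 (4.72 ± 0.53). ITGB5 had 19, 22.7 and 85.9 TPM against 169, 102 and 97.1 and fell by 2.01 ± 0.41, with replicate 3 close to the parental range. ITGB3, ITGB4, ITGB6 and ITGA2 were also called higher, but the ITGA2 libraries overlapped, and edgeR called 2 integrins.

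Among 23 matrix genes 6 were higher and 2 lower (34.8% called, against 7.45% of all genes tested). LAMA3 and LAMB3, laminin chains of epithelial basement membranes, both rose. LAMA3 had 148, 199 and 508 TPM against 45.9, 40.5 and 28.2 (2.61 ± 0.39, DESeq2 adjusted p 2.68e-09) and LAMB3 had 15, 14.7 and 41.6 against 7.84, 4.88 and 4.69 (1.78 ± 0.39). Replicate 3 was highest in each. COL5A2, a fibrillar collagen, had 1.16, 0.737 and 1.3 TPM against 13.7, 12.1 and 10.6 and fell by 3.65 ± 0.34. COL1A2 was also called lower, with 1 count in the 3 OVCAR3 ResB libraries together against 72 in OVCAR3 (a ratio of normalised counts of OVCAR3 to OVCAR3 ResB of 63.5, counting interval 11 to 2541), and lost its call with any replicate number left out (DESeq2 adjusted p 0.0543 to 0.158). COL17A1, COL6A2 and NID1 were also higher. The number of matrix genes called higher was 3 by edgeR and 2 without replicate 2.

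Of 22 matrix proteases, kallikreins and protease inhibitors 5 were higher and 5 lower (45.5% called, against 7.45% of all genes tested). MMP2, a gelatinase, had 9.32, 11.5 and 23.5 TPM against 0.962, 0.778 and 1.36 (log2 fold change 3.65 ± 0.38, DESeq2 adjusted p 2e-19), and PLAU, the urokinase plasminogen activator, had 176, 180 and 405 against 23, 28.7 and 21.3 (3.17 ± 0.33). TIMP2 and TIMP3, inhibitors of metalloproteases, and MMP10 rose by 1.34 to 1.41. The lower genes were 4 kallikreins of one cluster on chromosome 19, KLK7 (fell by 1.79 ± 0.43), KLK8 (by 1.47 ± 0.38), KLK6 (by 1.26 ± 0.36) and KLK10 (by 0.98 ± 0.34), and MMP15. Without replicate 2 none of the lower genes was called, and edgeR called 1.

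Of 30 WNT ligands, receptors and antagonists 7 were higher and 5 lower (40% called, against 7.45% of all genes tested). WNT7A, a ligand of the Mullerian duct, had 4.44, 8.24 and 20.1 TPM against 0.206, 0.0423 and 0.0424 (log2 fold change 6.42 ± 0.76, DESeq2 adjusted p 1.17e-14). WNT10A, WNT7B, WNT6, FZD5, ROR2 and SFRP1 were higher by 1.25 to 3.22, whereas WNT11 fell by 2.49 ± 0.48, FZD7 by 2.14 ± 0.35 and FZD8 by 1.78 ± 0.41, and FRZB and SOX17, which the list holds as antagonists, were also lower. Ligands, receptors and antagonists, of which SFRP1 rose, thus changed in both directions. With a replicate number left out 1 to 6 of the higher and 4 or 5 of the lower genes were called. Of 20 WNT target genes 4 were higher (CD44, NKD1, APCDD1 and NOTUM) and 2 lower (LGR5 and EPHB3). Among 28 genes of TGF-beta and BMP signalling, 4 were higher and 4 lower: BMP4 had 15.4, 18.1 and 12.9 TPM against 1.4, 2.52 and 2.31 (2.83 ± 0.43), GREM1, a BMP antagonist, 0.0474, 0.0366 and 0.0986 against 2.91, 1.96 and 1.36 (fell by 5.18 ± 0.72), and BMP7 79.9, 59.4 and 107 against 244, 225 and 211 (fell by 1.62 ± 0.31). GDF15, TGFB1 and TGFBI were the other higher genes, TGFBI with overlapping libraries, and TGFB2 and BMPR1B the other lower ones. The share called was 30% of the WNT targets and 28.6% of the TGF-beta and BMP genes.

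Of 15 markers of serous carcinoma 10 were below 0, and 5 were not overlapping and lower, as were 10.6% of all genes tested. Of the 15, 0 were called higher and 3 lower (20% called, against 7.45% of all genes tested). The 3 were WT1, SOX17 (fell by 1.64 ± 0.33) and FOLR1 (fell by 1.52 ± 0.51), the folate receptor. By edgeR 0 were higher and 2 lower. PAX8, the defining Mullerian factor, had 188, 167 and 217 TPM against 187, 212 and 210, and its log2 fold change was -0.18 ± 0.31 (DESeq2 adjusted p 0.891). Of 25 epithelial junction and keratin genes 3 rose, OVOL1 and CLDN1 among them, and 0 fell, with EPCAM at 892, 502 and 490 against 489, 600 and 564 TPM. Of 16 mesenchymal genes 1 rose, S100A4 (983, 2015 and 2088 against 379, 478 and 357 TPM), and 3 fell, MYL9 (by 2.42 ± 0.44), CDH2, which encodes N-cadherin (by 2.1 ± 0.44), and SPARC (by 1.62 ± 0.46). The share called was 12% of the epithelial list and 25% of the mesenchymal list.

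Some markers of other cell types were higher. PECAM1, the endothelial adhesion molecule CD31, had 3.83, 2.84 and 13.6 TPM against at most 0.048 (log2 fold change 7.22 ± 0.76, DESeq2 adjusted p 1.2e-18), while the endothelial genes CDH5, VWF, KDR, TIE1, TEK and CLDN5 stayed under 1 TPM in all 6 libraries and none of them was called. Of 6 endothelial and fibroblast markers tested, PECAM1 was the 1 called, and the 13 summed to 16.1 to 26.2 TPM in OVCAR3 ResB and 6.56 to 9.86 in OVCAR3. Of 8 mesothelial markers tested, with a median log2 fold change of 2.55, 4 were higher, PDPN (6.18, 4.47 and 8.69 against 0.129, 0.11 and 0.167 TPM), KRT5 (7.84, 6.69 and 9.67 against 0.468, 0.737 and 0.433), CALB2 and HP, and 2 were lower, WT1 and UPK3B. Without MSLN and WT1, which are also markers of serous carcinoma, 7 mesothelial markers summed to 17.8 to 26.4 TPM in OVCAR3 ResB and 8.79 to 11.1 in OVCAR3, with ITLN1 at 0 in all 6. In OVCAR3 ResA the same 7 markers summed to more, at 82, 88.6 and 185 TPM. In bulk RNA fewer cells with a transcript and less of it per cell cannot be told apart, and the part of other cell types in these values was not tested. Of 6 leukocyte markers tested DESeq2 and edgeR called 0, and 0 had an unadjusted p-value under 0.05.

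Stemness markers were called in both directions, with 3 of 19 higher and 3 lower (31.6% called, against 7.45% of all genes tested). CD44, the hyaluronan receptor, had 13.2, 10 and 23.4 TPM against 1.15, 0.702 and 0.735 (log2 fold change 4.04 ± 0.36, DESeq2 adjusted p 7.21e-26), and CD24 and ENG were also higher. ALDH1A1, an aldehyde dehydrogenase, had 15, 12 and 13.2 TPM against 47.1, 51.1 and 52.7 and fell by 2.02 ± 0.34, LIN28B, a repressor of let-7 maturation, had at most 0.0692 TPM against 2.79, 2.1 and 1.93 and fell by 6.07 ± 0.72, and LGR5 fell by 2.15 ± 0.5. CD44, ALDH1A1 and LIN28B were called whichever replicate number was left out.

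Genes of platinum transport were called at a share near that of all genes tested. Of 20 transport genes tested 1 was higher and 0 lower (5% called, against 7.45% of all genes tested). At an unadjusted DESeq2 p-value under 0.05 the numbers were 5 and 1, and by edgeR 1 and 0. Without the replicate block they were 3 and 1, and with all 33 libraries in one fit 7 and 2. ABCC3, an efflux pump for conjugated anions, had 6.06, 9.64 and 17.6 TPM against 0.744, 1.12 and 0.801 (log2 fold change 3.5 ± 0.38, DESeq2 adjusted p 2.22e-17). The copper transporters SLC31A1 and ATP7B, which can carry cisplatin, had -0.16 ± 0.39 and 0.23 ± 0.48. Of 35 genes of glutathione, NRF2 and metallothionein 5 rose and 1 fell (17.1% called, against 7.45% of all genes tested). The fallen member was GPX1, whereas GPX3, the secreted glutathione peroxidase, had 97.5, 59.3 and 119 TPM against 30.9, 29.7 and 29.4 (1.45 ± 0.32). MT2A, a metallothionein, had 241, 598 and 125 TPM against 21.4, 38.7 and 43.1 (3 ± 0.51), and AKR1B10, MT1X and GSTM3 rose too, with 1 to 7 members of the list called higher when a replicate number was left out and 2 by edgeR.

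DESeq2 called 0 of 35 genes of homologous recombination and Fanconi anaemia, 0 of 29 of nucleotide excision and mismatch repair and 0 of 12 of translesion synthesis. Over all genes tested it called 7.45%. By edgeR 0 of each list were called too. At an unadjusted p-value under 0.05 the numbers were 0, 2 and 0. Without replicate 3, 4 homologous recombination genes were called lower and 1 higher. Among 29 BCL2 family and death receptor genes FAS alone was called (13.6, 9.6 and 21.7 against 3.99, 2.95 and 2.83 TPM, log2 fold change 2.01 ± 0.37), and of 20 p53 targets FAS and GDF15.

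In the panel of WNT, EMT, STAT and transport genes that the study examined 7 of 17 tested genes were higher and 3 lower, and in its differentiated signature 3 of 6 were higher (C1orf116, PTGER2 and ALS2CL). The study chose both lists partly on these libraries, so the counts are not independent evidence of a direction. CASP14, at 0 counts in OVCAR3 and at 6.9, 1.15 and 0.808 TPM in OVCAR3 ResB, was at least 38-fold higher, and lost its call without replicate 2 (DESeq2 adjusted p 0.389) or replicate 3 (0.104). ERBB4, a receptor of the ERBB family, fell by 2.27 ± 0.33 and EPGN, an ERBB ligand, by 1.54 ± 0.43, and TGFA, another ligand, rose by 2.01 ± 0.39, these being the 3 called of 14. ANKRD1, NUAK2 and TEAD3 fell among 16 Hippo genes, none of them called by edgeR. The share called was 21.4% of the ERBB list and 18.8% of the Hippo list, against 7.45% of all genes tested.

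In lists of proliferation, respiration, translation and lipid synthesis 0% to 3.3% of members were called, against 7.45% of all genes tested. At that share lists of this size hold few calls, so the counts do not set these functions apart. Of 30 proliferation genes MKI67 alone was called (55.1, 48.9 and 118 against 39.1, 25.7 and 28.6 TPM). It was not called by edgeR, without replicate 2 or with all 33 libraries in one fit. Of 35 respiratory chain subunits NDUFA8 alone was called, and it fell by 1.05 ± 0.33. The respiratory chain list had a median log2 fold change of -0.45, with 4 of 35 members above 0. In this list 8 were not overlapping and lower, as were 10.6% of all genes tested. At an unadjusted DESeq2 p-value under 0.05, 6 of its members were lower and 0 higher, and 6 were called lower without replicate 3 and likewise without only the OVCAR3 ResB replicate 2 library. Of 37 cytosolic ribosomal proteins 0 were called by DESeq2 or edgeR, with a median of -0.19, 5 above 0, 8 not overlapping and lower, and 3 at an unadjusted p-value under 0.05. Of 26 genes of cholesterol and fatty acid synthesis DESeq2 and edgeR called 0, and 0 had an unadjusted p-value under 0.05. Of 26 glycolysis and hypoxia genes 3 rose, led by EPAS1, the hypoxia-inducible factor HIF2A (15.1, 7.95 and 33.9 against 2.23, 1.03 and 0.852 TPM, log2 fold change 3.54 ± 0.42). Of 20 genes of the unfolded protein and amino acid response DDIT4 rose, and ASNS, PSAT1 and XBP1 fell, XBP1 with overlapping libraries.

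**Figure D4:**
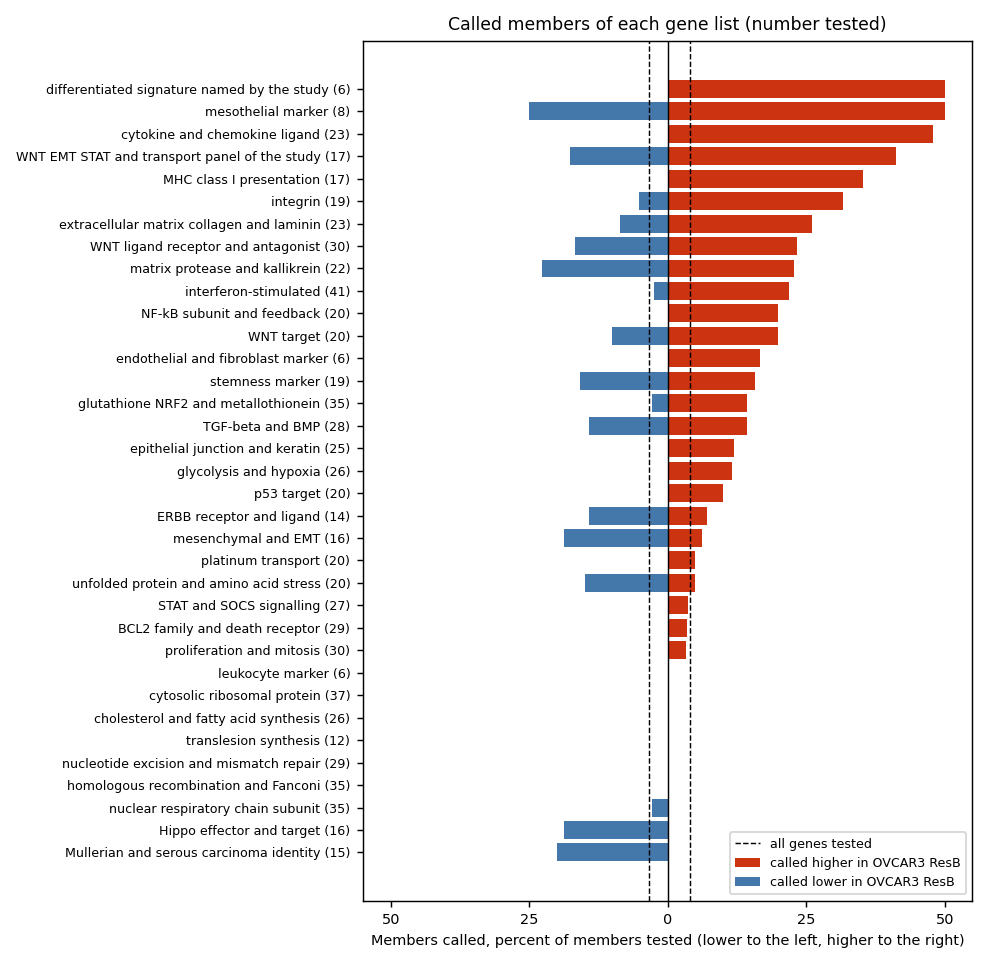
Share of the tested members of each gene list that were called higher (right, red) or lower (left, blue) in OVCAR3 ResB, in percent, with the number tested in brackets and dashed lines at the shares over all genes tested (4% higher, 3.44% lower). Cytokine and chemokine ligands had 11 of 23 higher and none lower, and the 3 DNA repair lists had none called.

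Neighbouring genes on chromosome 19 were lower together. Over 12209 genes with a position and a mean normalised count of at least 50, the lowest median among windows of 50 neighbouring genes was -1.28 on the log2 scale, from C19orf33 to SERTAD3 (chr19:38304251-40444335), against 0.035 over all these genes. In that window, chosen for its value and so described without a test, 34 of 50 genes were called lower, 1 was called higher, and 3 had a log2 fold change above 0. The median difference from the OVCAR3 mean on log2(TPM + 1) over the 50 genes was -1.26, -1.14 and -0.98 in the 3 OVCAR3 ResB libraries and -0.09 to 0.05 in the OVCAR3 libraries. All 3 OVCAR3 ResB libraries, replicate 3 included, were thus low.

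The window held genes of many functions. AKT2, a kinase of insulin and growth factor signalling, had 72.3, 58 and 128 TPM against 222, 160 and 167 and fell by 1.2 ± 0.31 (DESeq2 adjusted p 0.00308). PAK4, a kinase of the cytoskeleton, had 40.1, 56 and 75.6 TPM against 123, 115 and 119 and fell by 1.15 ± 0.33. EID2, a repressor of differentiation, had 63.9, 61.4 and 63.3 TPM against 192, 259 and 261 and fell by 2 ± 0.34. None of the libraries of these 3 genes overlapped. Others lower in the window were RPS16, a ribosomal protein (fell by 1.62 ± 0.36), FBL, the nucleolar methyltransferase fibrillarin (fell by 1.32 ± 0.32), PSMC4 of the proteasome, TIMM50 of mitochondrial import and DYRK1B. LGALS14 lies within the window and was the 1 gene called higher.

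The low values ended abruptly on the side of the long-arm end. SERTAD3, the last gene, fell by 1.82 ± 0.32 (65.6, 65.6 and 75.4 against 214, 234 and 235 TPM), and the next gene, BLVRB, had -0.09, with the 50 genes from BLVRB onward at a median of 0.13 and 1 called lower. The 50 genes before the window had a median of -0.71 with 8 called lower. In OVCAR3 ResA the 50 genes of the window itself had a median log2 fold change of 0.24 against OVCAR3. Of these window genes 38 were called lower in OVCAR3 ResB than in OVCAR3 ResA in a direct test. Without replicates 1, 2 and 3 the number of window genes called lower than OVCAR3 was 20, 13 and 36. No copy number was measured, so a change of gene dose and a change of transcription cannot be told apart here. The window with the highest median, 0.63, lay on chromosome 20 (chr20:270863-5611006), with 4 genes called higher and 46 of 50 above 0.

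**Figure D5:**
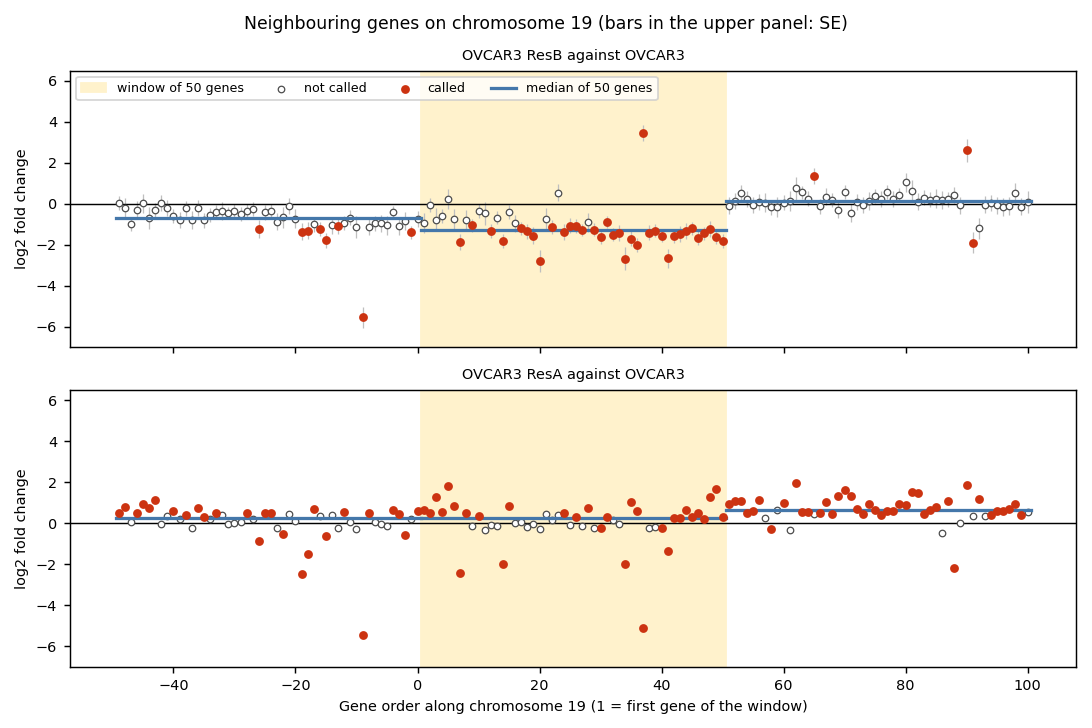
Log2 fold change against OVCAR3 of 150 neighbouring genes on chromosome 19 in their order along the chromosome, in OVCAR3 ResB (upper panel, bars are SE) and OVCAR3 ResA (lower panel), with called genes filled, the window of 50 genes shaded and horizontal lines at the median of each 50 genes. The medians in OVCAR3 ResB are -0.71, -1.28 and 0.13, and the window in OVCAR3 ResA is at 0.24.

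OVCAR3 ResB was also tested directly against OVCAR3 ResA. This test reuses the 3 OVCAR3 ResB libraries whose values chose the genes and the chromosome 19 window, so its counts over them are descriptions and not independent of that choice. Of 16193 genes tested 2204 (13.6%) were called, 1219 higher in OVCAR3 ResB (7.53%) and 985 lower (6.08%). Of the 13 genes with the widest gap above OVCAR3, 12 were also higher in OVCAR3 ResB than in OVCAR3 ResA, and of the 14 lower genes 6 were called, 5 lower and GAS1 higher. Several genes were nearly lost in both lines: CRIP1 was at 6.78, 12.2 and 15.2 TPM, NPAS3 at 0.602, 0.603 and 0.801 and WT1 at 1.79, 2.62 and 1.86 in OVCAR3 ResA. Some gains were shared too. In OVCAR3 ResA SLC1A6 was at 18.9, 20.1 and 25.4 TPM and CPA4 at 51.9, 47 and 31.8, both above OVCAR3. MAL, KCNIP3 and HLA-DMB were also called higher than OVCAR3 in OVCAR3 ResA, by less than in OVCAR3 ResB. Others differed widely. GPX1 was at 353, 357 and 319 TPM and TMPRSS15 at 364, 209 and 245 in OVCAR3 ResA, both above OVCAR3, and CRYAB at 22.6, 37.3 and 51.8, below OVCAR3. Against OVCAR3 ResA 17 of 41 interferon-stimulated genes and 11 of 22 cytokine and chemokine genes tested were higher in OVCAR3 ResB and 1 of each list lower, whereas MHC class I presentation had 1 of 17 higher and 0 lower. IL32, for example, stood at a mean of 0.349 TPM in OVCAR3 ResA (DESeq2 adjusted p 7.36e-30 in the direct test).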

How the data were processed

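RNA of 11 HGSOC lines was measured by mRNA sequencing in 33 libraries, of which 6 were compared here. Per the study's methods, the authors prepared libraries with an mRNA library kit, sequenced one pool over several runs, and processed reads against GRCh38 with the nf-core RNA-seq pipeline and salmon. One table deposited by the authors holds expected counts, estimated per gene and not normalised. A second table deposited by the authors gives TPM, which carries no depth. Both hold 29744 genes by symbol. Strand use and annotation release are not given in the sources used here.

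Expected counts were rounded and tested with DESeq2 1.42.0 in R 4.3.3 (Wald test, line plus replicate number, no filter, Benjamini-Hochberg threshold 0.05), with the test and terms that the study used. Adjusted p-values left undefined stayed so. Settings were checked on simulated counts. Alternatives were edgeR 4.0.16, limma 3.58.1 on log2(TPM + 1) or log2(TPM + 0.1), other size factors, a count filter, all 33 libraries, no block, a mitochondrial rRNA covariate and single replicates left out. Named genes were called, protein-coding and not overlapping in TPM, with a mean of at least 5 TPM, ranked by the gap between the nearest libraries on log2(TPM + 1), plus called members of gene lists. Members and lists were chosen with earlier results of these data known. Single libraries of OVCAR3 ResB were left out, and the lists of the closing observations chosen, after the values had been seen. Positions and promoters are RefSeq, GRCh38.p14, by symbol or synonym. Intervals and floors cover counting error only. Some genes that met these rules are not reported here.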

Additional observations from a re-analysis of the deposited data

Results flagged for a closer look

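The following genes changed from OVCAR3 by different amounts in the 2 derived lines, by the direct DESeq2 test of OVCAR3 ResB against OVCAR3 ResA at an adjusted p-value under 0.05. The genes were chosen on the same OVCAR3 ResB libraries, so the test is not independent of that choice. The values are log2 fold changes of OVCAR3 ResB over OVCAR3 ResA. Higher in OVCAR3 ResB were HECW1 (12.66), MGP (9.18), LGALS14 (8.56), KRT81 (8.25), CRYAB (5.74), SPOCK1 (4.69), S100A9 (4.69), KCNIP3 (3.99), MKX (3.11), HLA-DMB (2.65), MAL (2.24) and CPA4 (1.54). GAS1, which was lower than the parent in both lines, was also higher (1.22, adjusted p 0.0444). Lower in OVCAR3 ResB were GPX1 (-11.31), LCMT2 (-9.64), TMPRSS15 (-9.56), GJA1 (-6.23) and HSD17B8 (-5.8).

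Of these 18 genes, GPX1 and TMPRSS15 moved in opposite directions in the derived lines, with log2 fold changes against OVCAR3 of 2.41 ± 0.11 and 3.47 ± 0.11 (SE) in OVCAR3 ResA. CRYAB and LGALS14 moved the other way round, with log2 fold changes against OVCAR3 of -1.6 and -5.1 in OVCAR3 ResA. HECW1 also moved in opposite directions, with -6.42 ± 1.53 against OVCAR3 in OVCAR3 ResA (DESeq2 adjusted p 0.000118). It was at 0, 0 and 0 TPM in OVCAR3 ResA and at a mean of 0.139 TPM in OVCAR3. Fitted values against a group at or near 0 depend on the model.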

How the results depend on the processing

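Against OVCAR3, 667 genes were called higher and 574 lower with the replicate block. Without the block the counts were 957 and 808. The replicate numbers did not pair the libraries: deviations from the line mean of same-numbered libraries correlated at -0.087, 0.469 and -0.604. Counts moved by more than 1.5 times in at least 1 direction with edgeR (339 and 309), all 33 libraries in one fit (1524 and 1506), the mitochondrial rRNA covariate without the block (1871 and 1742), limma on log2(TPM + 1) (174 and 132), with a pseudocount of 0.1 (187 and 131) or without a filter (1 and 1), and without the OVCAR3 ResB replicate 2 library (1052 and 1001). Leaving out 1 replicate number gave 244 to 1086 higher and 208 to 853 lower, and leaving out 1 OVCAR3 ResB library 893 to 1052 and 815 to 1001. Against OVCAR3 ResA, where 1219 and 985 were called, edgeR gave 811 and 575, all 33 libraries 2747 and 2275, the covariate 2868 and 2525, limma 342 and 264, with a pseudocount of 0.1 344 and 253, without a filter 3 and 3. Without the block they were 1813 and 1436, without 1 replicate number 498 to 1939 and 295 to 1760, and without 1 OVCAR3 ResB library 1666 to 1980 and 1387 to 1718. The cause was not tested. On the TPM scale the median log2 fold change of genes with an adjusted p rose to 0.117. With windows of 100 genes the highest median was 0.37 and lay on chromosome 3, not 20. The lowest stayed on chromosome 19. Signs turned, with no call, for 5 genes, whose log2 fold changes with a replicate number or an OVCAR3 ResB library left out ran from -0.51 to 0.55 for ATP7A (-0.35 without OVCAR3 ResB replicate 3), -0.41 to 0.66 for DTX4 (-0.28), -0.3 to 0.28 for STAT5B (-0.24), -0.41 to 0.42 for EPCAM (-0.22 without OVCAR3 ResB replicate 1) and -0.43 to 0.34 for BLVRB (0.23 without OVCAR3 ResB replicate 3, and 0 on TPM). The mitochondrial rRNA difference was 0.375 percentage points of counts and 0.516 of TPM. At an unadjusted p-value under 0.05, limma without a filter had 1236 higher and 1289 lower against OVCAR3.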

Other observations

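Gene groups that were noticed after the values had been seen are described here without a test of the group. MHC class II genes, which present peptides to helper T cells and are not usually made by epithelial cells without interferon-gamma, were higher in OVCAR3 ResB for 6 of 9 tested members and lower for 0. Over all genes tested 4% were called higher and 3.44% lower. HLA-DRA had 37.4, 17.6 and 10.6 TPM against 4.16, 4.44 and 1.75 in OVCAR3 (log2 fold change 2.5 ± 0.42, adjusted p by DESeq2 2.55e-07), and CD74, the invariant chain, had 265, 271 and 183 against 38.6, 53.1 and 60.4 (2.15 ± 0.39). HLA-DMB, HLA-DPA1 and HLA-DPB1 were the other structural members, and CIITA, the activator of the class, had 0.922, 0.493 and 1.12 TPM against at most 0.136 (2.83 ± 0.77). HLA-DPB1 lost its call without replicate 1 (adjusted p 0.729) or 2 (0.438), CIITA likewise (0.27 and 0.219), and HLA-DPA1 without replicate 1 (0.0938). All 6 were also called higher in OVCAR3 ResB than in OVCAR3 ResA.

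Of 13 tested S100 genes, which encode small calcium-binding proteins, 5 were higher (S100A9, S100A8, S100A14, S100A4 and S100A2) and 0 lower. Of all genes tested 4% were called higher and 3.44% lower. S100A2 lost its call without replicate 2 (DESeq2 adjusted p 0.0918). S100A8, the partner of S100A9, had 28.7, 56.3 and 19.6 TPM against 3.02, 5.14 and 1.89, and S100A14 had 717, 386 and 420 against 80.7, 81.2 and 104. Against OVCAR3 ResA S100A9 and S100A14 were called higher and S100A2 lower (means of 310 against 1176 TPM). S100A8 and S100A4 were not called in that test. Of 17 tested keratins 6 were higher than in OVCAR3 and 1, KRT17, lower. KRT17 lost its call with any replicate number left out (DESeq2 adjusted p 0.0973 to 0.183). Without replicate 1 or 2, KRT4 (0.316 and 0.596) and KRT23 (0.0839 and 0.401) lost theirs. KRT86 lost its call without replicate 1 (0.0947) and KRT83 without replicate 2 (0.278), and both are close copies of KRT81. KRT81 and KRT5 were called whichever replicate number was left out. The simple epithelial keratins KRT7, KRT8, KRT18 and KRT19, the most abundant of the keratins listed in OVCAR3, were not called, with log2 fold changes between -0.9 and 0.73. Among the keratins called against OVCAR3, KRT81, KRT23 and KRT86 were also called higher than in OVCAR3 ResA. KRT4 and KRT5 were called lower than in OVCAR3 ResA (KRT5 at means of 8.06 against 111 TPM), and KRT83 and KRT17 were not called.

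GAGE genes gave a different picture by copy and by sum in OVCAR3 ResA. GAGE2A was at 0.829, 0.36 and 0.175 TPM there, but 11 GAGE genes summed to 12.4, 14.5 and 13.9, against 15.3, 15.4 and 13.7 in OVCAR3.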
